A study of Mus musculus with 28 samples.

Results

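The comparison set 7 libraries of stressed female mice given a virus labelled as a Slit1 knockdown against 7 libraries of stressed female mice given a virus carrying LacZ, 14 of the 28 libraries of the study. Members were chosen by the labels for virus and treatment alone. Each library came from 1 mouse, and the sequenced RNA came from ventromedial prefrontal cortex taken after 3 days of the stress procedure that the labels abbreviate sCVS. All mice of both groups had been infected, so the LacZ libraries control for the virus but not for its absence. The type of virus, the promoter, the knockdown sequence, the strain and the age of the mice are not given in the sources used here. Of the remaining 14 libraries, 7 carried the knockdown label and 7 carried LacZ, and these mice were not stressed. Replicates are numbered by accession within each group. One library stood apart before any comparison was made: knockdown replicate 2, the library titled 18, carried a large amount of bone RNA, so the results are given with it and without it.

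Slit1, Slit2 and Slit3 are secreted ligands of the Robo receptors. A Slit bound to Robo recruits srGAP proteins, which act on small GTPases and turn growing axons away from the source of the ligand, and in the cortex Slit and Robo also shape dendrites. The ventromedial prefrontal cortex controls emotional and hormonal responses to stress through its deep-layer projection neurons. Stress raises glucocorticoid hormone, which acts on the receptor encoded by Nr3c1. Fkbp5, a co-chaperone that lowers the affinity of that receptor, is one of its induced targets.

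Depth was close in both groups, with 32.0 to 42.1 M counted fragments in knockdown-labelled libraries and 34.6 to 41.6 M in LacZ libraries. Over the 28 libraries, the first principal component of log2 counts scaled for depth (CPM) held 58.8% of the variance. Its values in the 14 stressed libraries differed little by virus, which held 0.0288% of its variance there. The slope of a library's expression on the GC content of transcripts was -0.56 to 0.52 in knockdown-labelled libraries and -0.51 to 0.56 in LacZ libraries. Of the 14, LacZ replicate 2 had the highest slope and the lowest value on the first component (-106.2). Knockdown replicate 6 had the lowest slope and the highest value on that component (99.6). The main fit does not adjust for this slope. RNA of excitatory neurons was present in all 14 libraries. Camk2a, a kinase of these neurons, was at 133 CPM or more in each. Slc17a7, a marker of cortical excitatory neurons, was at 22.5 CPM or more and was lowest in knockdown replicate 7. Gfap, an astrocyte filament gene, is listed at 0 in all of them. Its span lies wholly inside that of another gene, and fragments there were counted for neither, so this is no measure of astrocytes. In bulk tissue, fewer cells of a type and less RNA per cell cannot be told apart.

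Slit1 itself (ENSMUSG00000025020, GRCm38 chromosome 19, 41600257 to 41743665, minus strand) was not lower beyond the spread between mice. In knockdown-labelled libraries its lowest, median and highest levels were 7.48, 13.03 and 30.9 CPM, against 9.28, 13.5 and 33.9 CPM in LacZ libraries. The groups overlapped almost fully, and in each of them 3 libraries stood well above the other 4. Those 3 were knockdown replicates 1, 2 and 3 at 23.9, 30.9 and 30.1 CPM and LacZ replicates 1, 2 and 4 at 30.4, 33.9 and 27.1 CPM. The same 6 libraries had the 6 highest GC slopes of the 14. These slopes were 0.34, 0.285 and 0.52 in the knockdown-labelled libraries and 0.47, 0.56 and 0.31 in the LacZ libraries, in the same order. All 6 libraries also had sample numbers up to 20 in their titles. So did knockdown replicate 4 and LacZ replicate 3, where Slit1 was at 11.4 and 9.28 CPM. The parts of the GC slope and of the title number in the level of Slit1 were not tested beyond the fits below.

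The log2 fold change of Slit1, knockdown label over LacZ, was -0.12 ± 0.43 (SE), and -0.30 ± 0.44 without the bone-rich library. The exact two-sided permutation test of mean log2 CPM gave p = 0.716 over all 3432 splits of 7 against 7, and p = 0.483 over 1716 splits without that library. With the GC slope as a covariate and without the bone-rich library, the log2 fold change was -0.21 ± 0.18. Within the libraries with title numbers up to 20 it was -0.04, and within those above 20 it was -0.27. The 95% interval reached down to -0.96 with all libraries, to -1.16 without the bone-rich one and to -0.56 in the fit with the GC slope. These limits allow a loss of Slit1 of up to 48.5%, 55.4% and 32.2%. Every direction given below for the knockdown label therefore rests on the label and not on a measured loss of the target. Counting was over whole gene spans, so unspliced RNA enters the level of Slit1 too.

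**Figure D1:**
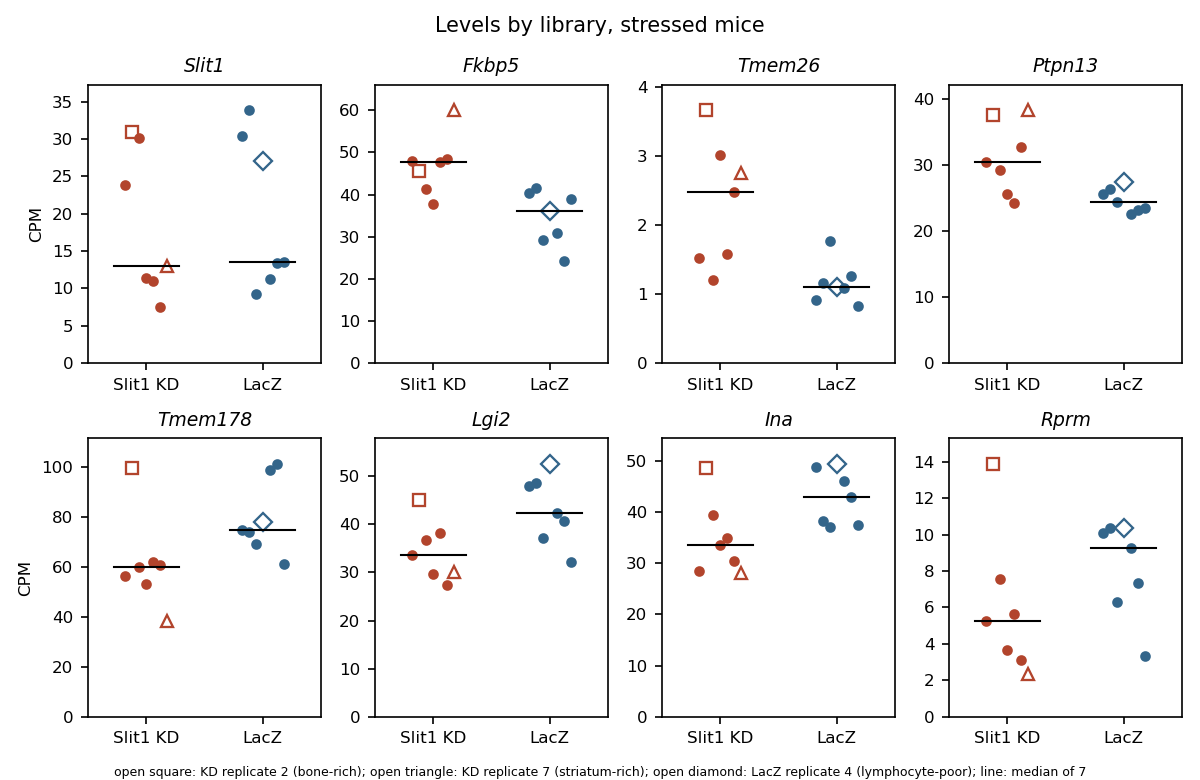
Levels of 8 genes in CPM (vertical axes, from 0) in the 7 stressed knockdown-labelled libraries, left in each panel, and the 7 stressed LacZ libraries, right. Points are libraries, lines are medians, and open symbols mark the bone-rich, striatum-rich and lymphocyte-poor libraries: Slit1 overlaps almost fully, Fkbp5 lies at 37.9 CPM or above under the knockdown label, and Tmem178 lies at 62.0 CPM or below there once the bone-rich library is left out.

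The other ligands and the receptors were at like levels in both groups. Slit2 had a lowest, median and highest level of 90.7, 171.5 and 241.9 CPM in knockdown-labelled libraries and 77.7, 154.8 and 220.0 CPM in LacZ libraries. The log2 fold change was 0.09 ± 0.29, and 0.07 ± 0.30 without the bone-rich library. Slit3 was at 0.21 ± 0.24 with all libraries and at 0.07 ± 0.24 without the bone-rich one. Robo1 and Robo2, the main Slit receptors of brain, were at 0.03 ± 0.23 and 0.03 ± 0.31 with all libraries and at 0.02 ± 0.24 and 0.04 ± 0.33 without the bone-rich one. Robo3, a divergent receptor that in mammals does not bind Slits, showed the lowest value of the family. It had 0.61, 3.81 and 5.67 CPM in knockdown-labelled libraries and 1.58, 4.87 and 9.38 CPM in LacZ libraries, a log2 fold change of -0.64 ± 0.45 with groups that overlapped, and -0.66 ± 0.48 without the bone-rich library. Robo4, the endothelial member, was at -0.19 ± 0.36 and -0.16 ± 0.38. The intracellular partners Srgap1, Srgap2 and Srgap3 were at 0.32, 0.04 and -0.01 with all libraries and at 0.19, 0.05 and -0.10 without the bone-rich one. Of the 10 genes of this family, 6 lay above 0 in both fits and none had an unadjusted p below 0.05 in edgeR's quasi-likelihood test in either. All of these intervals are wide: the median SE of a log2 fold change over all genes was 0.31.

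No gene passed a Benjamini-Hochberg adjusted p of 0.05 in edgeR's quasi-likelihood test. With all libraries 0 of 19171 genes (0%) were called, and without the bone-rich library 0 of 19340 (0%). At an unadjusted p below 0.05 there were 127 higher genes (0.662%) and 31 lower genes (0.162%) with all libraries. Without the bone-rich library there were 85 higher (0.44%) and 58 lower (0.3%). Both shares together lay under the 5% that evenly spread p-values would give. In the same fit the unstressed comparison had 172 genes (0.897%) at an unadjusted p below 0.05. The median log2 fold change over all genes was -0.03 in both fits. Above 0 lay 42.3% of genes with all libraries and 44.3% without the bone-rich one, and member counts below are to be read beside these shares. DESeq2 and voomWithQualityWeights also called 0 genes with and without that library. At an unadjusted p below 0.05 DESeq2 had 175 and 192 genes, and voomWithQualityWeights 880 and 991. By its defaults DESeq2 replaces outlying counts in groups of 7, so its fit with the bone-rich library need not carry those counts in full.

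Leaving the bone-rich library out changed which genes led. Of the 158 genes at an unadjusted p below 0.05 with it and the 143 without it, 73 were in both lists (46.2% and 51.0%), 56 of them higher and 17 lower, all with the same sign. Of the 127 higher genes, 73 had their highest level of the 14 libraries in knockdown replicate 2. Of the 85 higher genes found without it, 47 had their highest level in 1 other library, knockdown replicate 7. Of the 58 lower genes, 25 had their lowest level there. Among the 143 genes, 45 remained at an unadjusted p below 0.05 when both libraries were left out, and 96 genes in all were at that level then.

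**Figure D2:**
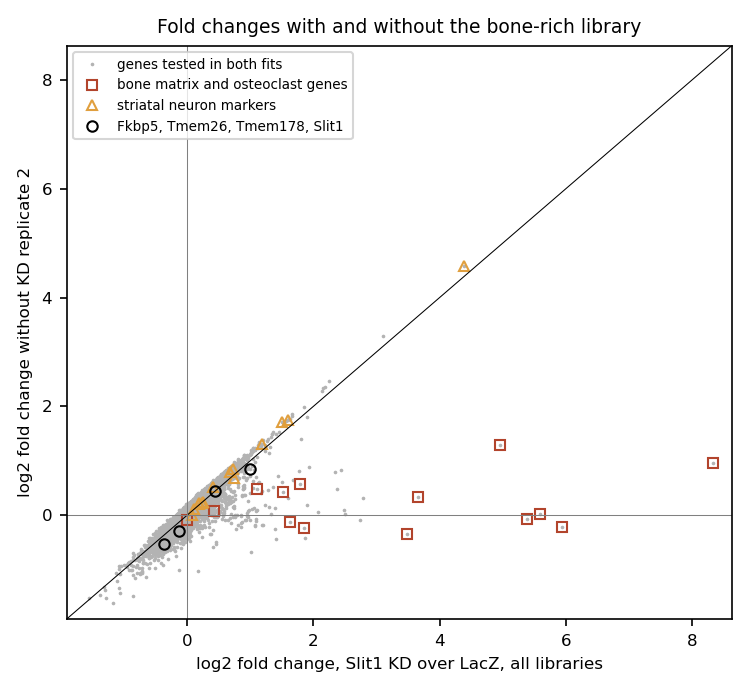
Each point is a gene tested both ways, with its log2 fold change (knockdown label over LacZ, stressed) from all libraries on the horizontal axis and without the bone-rich library on the vertical axis; the diagonal marks equal values. Bone genes lie far to the right and near 0 on the vertical axis (Col1a1 at 5.93 and -0.21), while striatal markers such as Isl1 (4.38 and 4.59) stay on the diagonal.

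The genes with the smallest p among all libraries were those of bone. Ibsp, which encodes bone sialoprotein, was at 218 CPM in knockdown replicate 2 and at 0.038 to 0.58 CPM in the other 6 knockdown-labelled libraries, against 0.045 to 0.16 CPM in LacZ libraries. The log2 fold change stood at 8.33 ± 1.81 with that library (edgeR unadjusted p = 9.26e-05, Benjamini-Hochberg adjusted p = 1.00) and 0.95 ± 0.83 without it. Col1a1 and Col1a2, which encode type I collagen, were at 633.5 and 999 CPM in this library. In the other 6 knockdown-labelled libraries they reached 2.44 and 18.99 CPM, against 3.08 and 17.8 CPM in LacZ libraries. The osteoclast protease Ctsk was at 252 CPM there, and Mmp9 and Mmp13, matrix metalloproteases of bone turnover, were at 95.5 and 223.5 CPM. Without the library the log2 fold changes of Ctsk, Mmp9 and Mmp13 were -0.34, 0.03 and -0.07.

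Of 14 bone matrix and osteoclast genes tested, 13 lay above 0 with all libraries, at a median log2 fold change of 2.67, and 11 had an unadjusted p below 0.05. Without the library 8 of 14 lay above 0, at a median of 0.05, and 1 had an unadjusted p below 0.05. That 1 was Atp6v0d2, a proton pump subunit of osteoclasts, at 0.098 to 0.53 CPM in the 6 knockdown-labelled libraries and 0.023 to 0.29 CPM in LacZ libraries (log2 fold change 1.29 ± 0.59). The summed level of the bone list was 3034 CPM in knockdown replicate 2. In the other 6 it ran from 98.7 to 127.8 CPM, against 78.1 to 124.9 CPM in LacZ libraries. Meningeal and fibroblast markers moved with the same library: their median was 0.53 with it and 0.06 without it, and 4 against 0 had an unadjusted p below 0.05. Their median also moved with LacZ replicate 4, to 1.11 without it and to 0.44 without both of these and knockdown replicate 7. Col13a1, a transmembrane collagen, was at 2.44 ± 0.64 with the library and 0.82 ± 0.40 without it. Scn11a, a sodium channel known from sensory neurons, was at 1.13 ± 0.35 and 0.60 ± 0.27. The red cell and granulocyte list did not follow as a whole, with 2 of 8 members above 0 and a median of -0.14, although 2 members had an unadjusted p below 0.05.

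**Figure D3:**
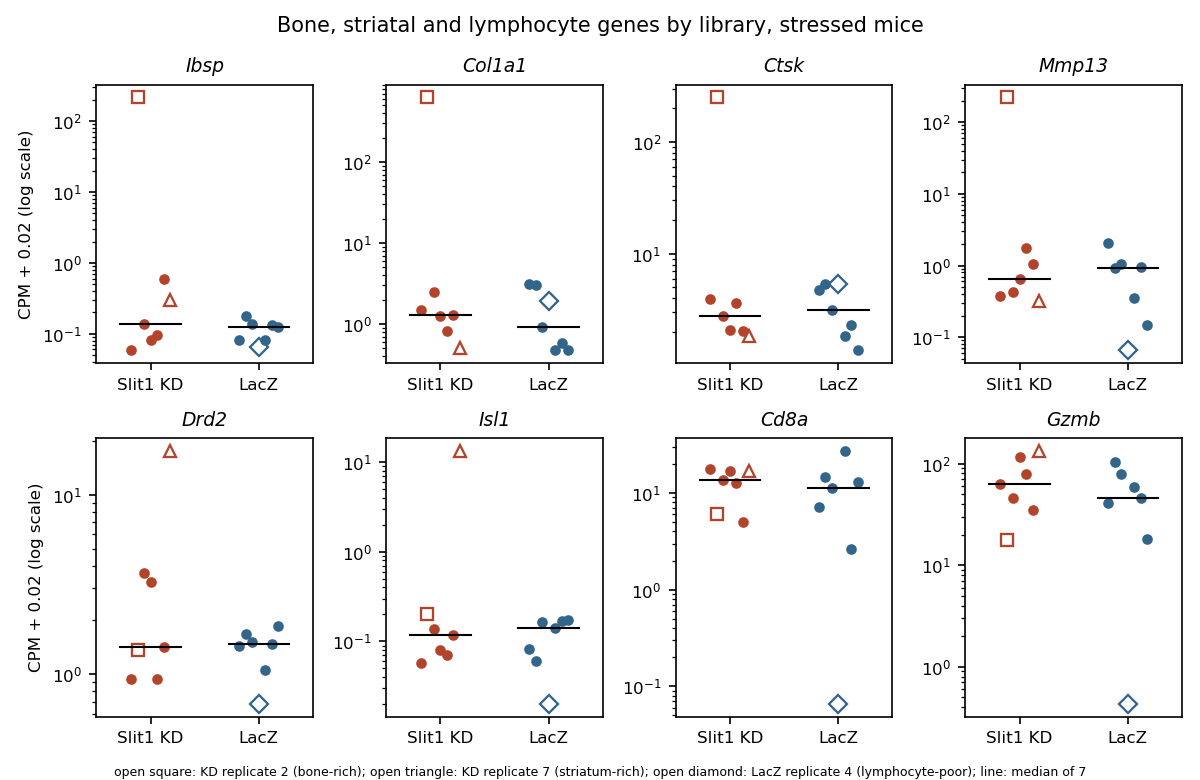
Bone genes (Ibsp, Col1a1, Ctsk, Mmp13), striatal genes (Drd2, Isl1) and lymphocyte genes (Cd8a, Gzmb) in each stressed library, in CPM with 0.02 added, on log axes; knockdown label left, LacZ right, lines at the median of 7. Knockdown replicate 2 (open square) reaches 218 CPM for Ibsp, knockdown replicate 7 (open triangle) reaches 13.3 CPM for Isl1, and LacZ replicate 4 (open diamond) has 0.41 CPM of Gzmb.

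Knockdown replicate 7 was rich in genes of the striatum, the region below this cortex. Isl1, a transcription factor of striatal cholinergic and projection neurons, was at 13.3 CPM there and at most 0.18 CPM in any other of the 14 libraries. Drd2 and Drd3, dopamine receptors, were at 17.5 and 5.98 CPM in this library, against at most 1.83 and 0.18 CPM in LacZ libraries. Slc5a7, the choline transporter of cholinergic neurons, was at 34.7 CPM there and at most 3.93 CPM in the other knockdown-labelled libraries. Rarb, a retinoic acid receptor of striatal neurons, was at 192.5 CPM, against 13.1 to 24.5 CPM in LacZ libraries. Without the bone-rich library Isl1, Drd3, Slc5a7, Drd2 and Rarb were at log2 fold changes of 4.59, 3.29, 1.74, 1.75 and 1.32. Leaving out knockdown replicate 7 as well brought them to -0.33, 0.71, -0.08, 0.56 and 0.01.

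All 15 striatal neuron markers tested without the bone-rich library lay above 0, at a median log2 fold change of 0.52, and 3 had an unadjusted p below 0.05. Without knockdown replicate 7 too the median was -0.03. Their summed level was 840 CPM in that library, 270 to 389 CPM in the other knockdown-labelled libraries and 271 to 398.5 CPM in LacZ libraries. Nts, a neuropeptide gene, followed the same library at 22.2 CPM (log2 fold change 1.87, and 0.57 without both). Adora2a, an adenosine receptor of striatal neurons, did not follow: it was at 4.08 CPM there, below 2 other knockdown-labelled libraries at 4.33 and 5.12 CPM and LacZ replicate 2 at 6.51 CPM. Clic6 followed at 10.1 CPM and Otx2, a transcription factor of choroid plexus, at 3.37 CPM. Otx2 was not tested with all libraries, since it did not pass the filter on low counts there. It was at 3.33 without the bone-rich library, and it was at -0.72 without knockdown replicate 7 too. Ttr, the choroid plexus gene that codes for transthyretin, was at 0.56 CPM or less in all 14 libraries.

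Fkbp5 (GRCm38 chromosome 17, 28399095 to 28517524, minus strand) was the glucocorticoid target with an unadjusted p below 0.05 whichever library was left out. It had a lowest, median and highest level of 37.9, 47.7 and 60.1 CPM in knockdown-labelled libraries, against 24.2, 35.98 and 41.5 CPM in LacZ libraries. The groups overlapped: 3 LacZ libraries lay above knockdown replicate 4, the lowest, and 5 of 7 knockdown-labelled libraries lay above every LacZ library. On the log2 CPM scale all 7 exceeded the LacZ mean. Its log2 fold change was 0.45 ± 0.18 (edgeR unadjusted p = 0.0174, Benjamini-Hochberg adjusted p = 1.00). Without the bone-rich library it was 0.45 ± 0.19 (edgeR unadjusted p = 0.0221, Benjamini-Hochberg adjusted p = 1.00). It stayed between 0.38 and 0.49 with any 1 of the 14 libraries left out, with edgeR unadjusted p from 0.0125 to 0.0467. The highest of these p-values came without knockdown replicate 7, where Fkbp5 was at its highest level. Fkbp5 was chosen with earlier results of these data known, so its values with libraries left out are no separate support. Without knockdown replicates 2 and 7 it was 0.37, and with the GC slope as a covariate and without the bone-rich library 0.48. Within the libraries with sample numbers up to 20 in their titles it was 0.26, and within those above 20 it was 0.73. In unstressed mice, which share no library with these groups but share the estimate of spread in the fit, it was 0.34 ± 0.18 (edgeR unadjusted p = 0.0679).

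Of the other named genes of the hormone response, Nr3c1, Sgk1, Tsc22d3 and Per1 had no unadjusted p below 0.05 in edgeR's quasi-likelihood test in either fit. Nr3c1, the glucocorticoid receptor, had 175, 325 and 423 CPM in knockdown-labelled libraries and 191, 311 and 462 CPM in LacZ libraries (-0.10 ± 0.28, and -0.05 ± 0.29 without the bone-rich library). Sgk1, a kinase induced by the hormone, was at 0.04 ± 0.12 and 0.00 ± 0.12, and Tsc22d3, which encodes the leucine zipper protein GILZ, was at 0.23 ± 0.18 and 0.22 ± 0.19. Per1, a clock gene also induced by the hormone, was at -0.19 ± 0.68 and -0.38 ± 0.72. Of 25 glucocorticoid-responsive genes tested, 18 lay above 0 in both fits, at medians of 0.20 with all libraries and 0.14 without the bone-rich one, and 0.08 when knockdown replicate 3 was left out. Within the libraries with sample numbers above 20 in their titles the median was 0.61. At an unadjusted p below 0.05 were 2 with all libraries (Fkbp5 and Hif3a, at 0.67 ± 0.32, named here after its value was seen) and Fkbp5 alone without it. Of 10 corticosteroid receptor and hypothalamic stress peptide genes, 2 lay above 0 in both fits, at medians of -0.15 and -0.12.

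Immediate early genes, whose transcription follows neuronal firing, lay mostly below 0: 6 of 28 were above it in both fits, at medians of -0.20 and -0.19, none with an unadjusted p below 0.05. The direction turned within the libraries with sample numbers above 20, where the median was 0.16. Arc, which acts on AMPA receptor uptake at active synapses, had a lowest, median and highest level of 1.55, 5.79 and 24.3 CPM in knockdown-labelled libraries and 2.16, 5.51 and 50.9 CPM in LacZ libraries. Both groups spread widely and overlapped, and its log2 fold change was -0.75 ± 0.72 and, without the bone-rich library, -1.07 ± 0.76. Fos was at -0.17 ± 0.28 and -0.14 ± 0.30, and Bdnf, a neurotrophin, at -0.21 ± 0.33 and -0.18 ± 0.35. The summed level of the list was 535 to 1267 CPM in the 6 knockdown-labelled libraries and 708 to 1368 CPM in LacZ libraries.

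Tmem26 and Ptpn13 were among the higher genes whose unadjusted p stayed below 0.05 with any 1 library left out. Both were named for a small p in these same libraries, as were Adam12, Trpm3, Itih5 and the lower genes described next. Values with libraries left out therefore describe these genes and are no separate support. Atp6v0d2, Col13a1 and Scn11a, all highest in the bone-rich library, stayed below 0.05 in the same way. Tmem26 (GRCm38 chromosome 10, 68723646 to 68782650, plus strand), a membrane protein used as a marker of beige fat cells, had 1.21, 2.48 and 3.67 CPM in knockdown-labelled libraries and 0.83, 1.11 and 1.77 CPM in LacZ libraries. In log2 CPM all 7 knockdown-labelled libraries exceeded the LacZ mean, and 4 of 7 lay above every LacZ library. The log2 fold change was 1.00 ± 0.27 (edgeR unadjusted p = 0.00107, Benjamini-Hochberg adjusted p = 1.00), and 0.85 ± 0.27 without the bone-rich library.

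Ptpn13, a tyrosine phosphatase, had 24.3, 30.5 and 38.3 CPM in knockdown-labelled libraries and 22.6, 24.4 and 27.4 CPM in LacZ libraries. Knockdown replicates 4 and 5 lay within the LacZ range and the other 5 above it. The log2 fold change was 0.33 ± 0.10 (edgeR unadjusted p = 0.00275, Benjamini-Hochberg adjusted p = 1.00), 0.28 ± 0.10 without the bone-rich library and 0.20 without knockdown replicate 7 as well. Of its counted span, 11.3% is shared with another gene.

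Adam12, a metalloprotease, also kept an unadjusted p below 0.05 in that way, and was highest in the bone-rich library at 77.6 CPM. In the other 6 knockdown-labelled libraries it had 15.2 to 40.7 CPM, against 10.5 to 21.0 CPM in LacZ libraries, with log2 fold changes of 1.04 ± 0.30 and 0.63 ± 0.24 without that library. Trpm3, a cation channel gene, was highest in knockdown replicate 7 at 461.5 CPM. Its log2 fold change was 0.69 ± 0.27, 0.75 ± 0.29 without the bone-rich library and 0.45 without both. Itih5, a gene of hyaluronan-binding matrix proteins, was at 0.30 ± 0.13, 0.34 ± 0.13 and 0.27 in the same order. 

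Tmem178 (GRCm38 chromosome 17, 80944632 to 81001816, plus strand), a membrane protein of the endoplasmic reticulum, had 38.1, 58.2 and 62.0 CPM in 6 knockdown-labelled libraries and 61.0, 74.5 and 101 CPM in LacZ libraries. Just 1 knockdown-labelled library, replicate 5 at 62.0 CPM, lay above the lowest LacZ library, replicate 7 at 61.0 CPM. The bone-rich library, at 99.4 CPM, lay among the highest LacZ values. Its log2 fold change was -0.37 ± 0.17 with that library and -0.53 ± 0.15 without it (edgeR unadjusted p = 0.00177, Benjamini-Hochberg adjusted p = 1.00). It was -0.45 when knockdown replicate 7, the lowest at 38.1 CPM, was left out too.

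Lgi2, a secreted protein of the LGI family of synaptic ligands, had 27.5, 31.9 and 38.3 CPM in the 6 knockdown-labelled libraries and 32.1, 42.3 and 52.7 CPM in LacZ libraries (-0.32 ± 0.14 with all, -0.40 ± 0.14 without the bone-rich library). Ina, the neurofilament protein alpha-internexin, had 28.03, 32.0 and 39.3 CPM in the 6 and 37.1, 42.9 and 49.4 CPM in LacZ libraries (-0.30 ± 0.14 and -0.40 ± 0.14). In log2 CPM the 6 libraries were under the LacZ mean for both genes, and the groups overlapped at their edges. In the bone-rich library Lgi2 was at 45.2 CPM and Ina at 48.6 CPM, the highest of the knockdown-labelled libraries.

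Nptx1, a pentraxin that gathers AMPA receptors at synapses, was at -0.35 ± 0.21 with all libraries and -0.49 ± 0.21 without the bone-rich one. The deep-layer markers Rprm and Hs3st4 were at -0.46 and -0.44 with all libraries and at -0.83 ± 0.34 and -0.71 ± 0.31 without it. Rprm had 2.36 to 7.56 CPM in the 6 libraries, 13.9 CPM in the bone-rich one and 3.36 to 10.4 CPM in LacZ libraries. Hs3st4 had 114 to 221 CPM in the 6, 363 CPM in the bone-rich library and 125.5 to 423 CPM in LacZ libraries, and 25.1% of its span is shared with another gene. Prss35, a protease-like secreted protein, was at -0.38 and -0.91 ± 0.39. Hsph1, a heat shock protein of the HSP110 class, was at -0.23 ± 0.12 and -0.29 ± 0.12, and Ttc9 at -0.18 ± 0.11 and -0.26 ± 0.10. For each of these 6 genes the bone-rich library was the highest of the 7 knockdown-labelled ones, so leaving it out made the value more negative.

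The lowest p among lower genes with all libraries also belonged to genes with few counts. Cdh24, a cadherin, had 0.63 to 1.57 CPM in knockdown-labelled libraries and 1.16 to 3.34 CPM in LacZ libraries (-0.66 ± 0.30). Saxo1, Mael and Vnn3 were at 1.003 CPM or less in all 14 libraries, at -0.79, -0.70 and -0.63. Desi2, which encodes a deSUMOylating enzyme, was at -0.46 ± 0.22. None of these 5 had an unadjusted p below 0.05 without the bone-rich library, where Cdh24 was at -0.66, Saxo1 at -0.78, Mael at -0.65 and Desi2 at -0.45, and Vnn3 was at -0.47.

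Groups did not overlap for 1 gene with all libraries, 4933413J09Rik, which lay above in the knockdown-labelled libraries (0.00522% of genes tested), and for no gene that lay below (0%). Without the bone-rich library they did not overlap for 2 genes that lay above (0.0103%), 4933413J09Rik and Gm26685, and 0 that lay below (0%). Both genes were named after their values were seen. The log2 fold change of 4933413J09Rik was 0.69 ± 0.27 with all libraries. The share of its span that other genes overlap is 16.4%, and its mean level was 0.42 CPM.

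**Figure D4:**
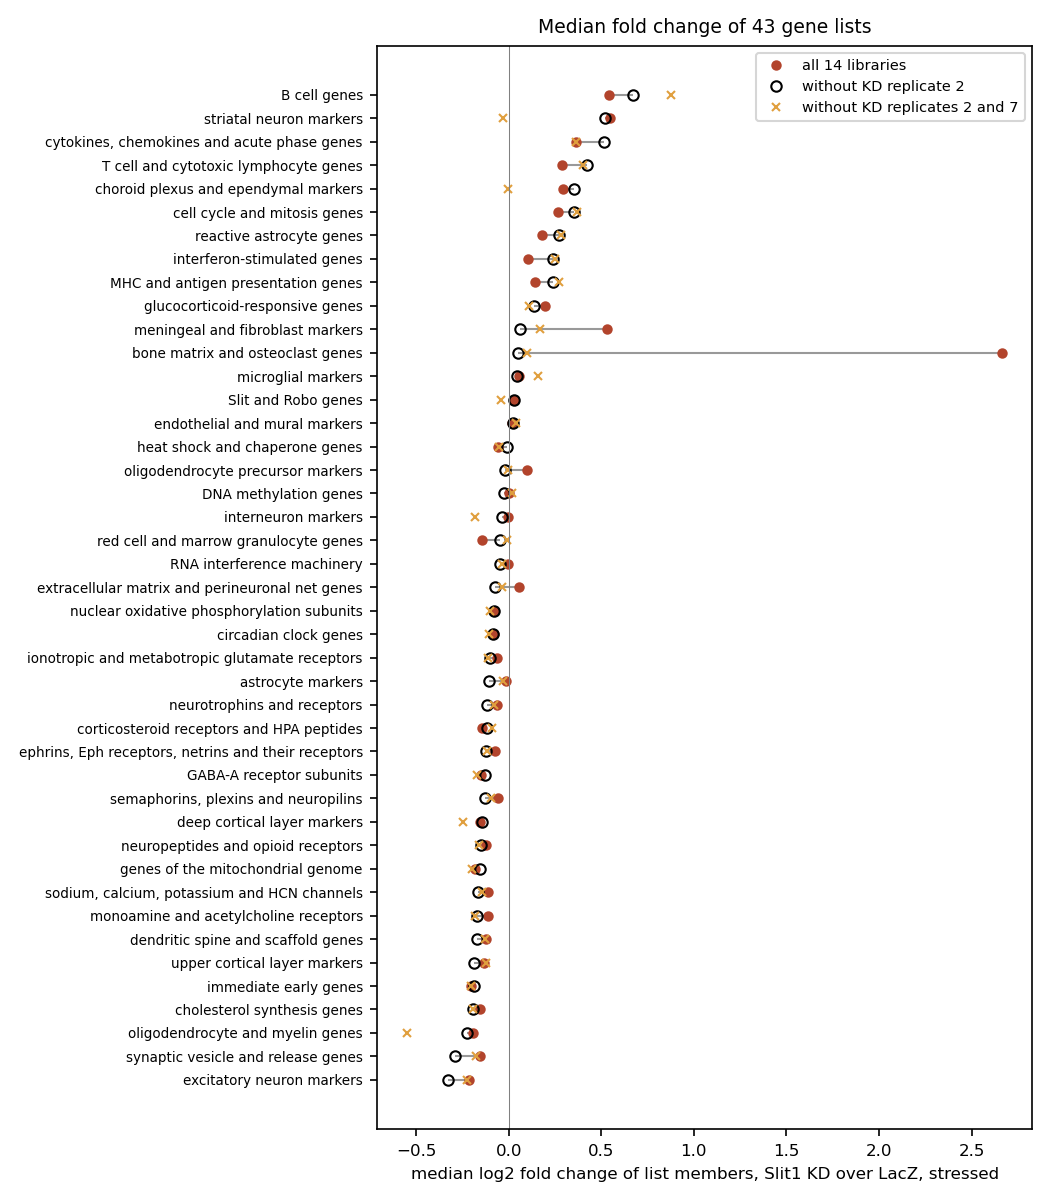
Median log2 fold change (knockdown label over LacZ, stressed, horizontal axis) of the tested members of 43 gene lists, with all 14 libraries (filled), without the bone-rich library (open) and without it and the striatum-rich one (crosses). The bone list moves between 2.67 and 0.05, the striatal list between 0.52 and -0.03 when knockdown replicate 7 is left out, and the excitatory neuron list lies lowest of the open points at -0.33.

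Lists of excitatory neuron, layer and synaptic genes lay below the median of all genes. Of 15 excitatory neuron markers, 1 lay above 0 in both fits, at medians of -0.22 with all libraries and -0.33 without the bone-rich one. Slc17a7, the vesicular glutamate transporter, had 22.5, 72.5 and 232 CPM in knockdown-labelled libraries and 31.6, 55.8 and 252 CPM in LacZ libraries (log2 fold change -0.28 ± 0.67). Tbr1, a transcription factor of deep-layer neurons, was at -0.33 ± 0.29 and Camk2a at -0.13 ± 0.37. Of this list, 1 gene (Nptx1) had an unadjusted p below 0.05 without the bone-rich library, and 0 had one with it. The summed level of the list was 1715 to 4106 CPM in knockdown-labelled libraries and 2453 to 4316 CPM in LacZ libraries, with the lowest sum in the striatum-rich replicate 7. Without both libraries the median was -0.22, and without LacZ replicate 4 alone -0.11.

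Synaptic and membrane protein lists also had most members below 0, at small values. Of 50 sodium, calcium, potassium and HCN channel genes, 7 lay above 0 with all libraries and 5 without the bone-rich one, at medians of -0.11 and -0.17. Of 30 dendritic spine and scaffold genes, 3 and 2 did (-0.12 and -0.17), and of 31 synaptic vesicle genes 6 and 4 (-0.16 and -0.29). Deep-layer markers numbered 3 and 2 of 14 above 0 (-0.16 and -0.14), and upper-layer markers 2 of 11 in both fits (-0.13 and -0.19). Interneuron markers were split, with 8 of 17 above 0 in both fits (-0.01 and -0.04). These medians rested in part on single libraries. Without LacZ replicate 1 they were -0.04 for vesicle, -0.02 for spine and -0.05 for channel genes, without LacZ replicate 4 that of upper-layer markers was 0.07, and without LacZ replicate 5 that of deep-layer markers was -0.04. GABA-A receptor subunits had 2 and 3 of 12 above 0, and glutamate receptor genes 7 of 24 in both. Without the bone-rich library, the unadjusted p was below 0.05 and the value lower for 0 channel, spine or vesicle genes and for 2 deep-layer markers, Rprm and Hs3st4.

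Myelin genes lay below 0 in 17 of 20 cases with all libraries and 18 of 20 without the bone-rich one, at medians of -0.19 and -0.23. Mbp, which encodes a major protein of compact myelin, had a lowest, median and highest level of 44.6, 76.2 and 144 CPM in knockdown-labelled libraries and 51.4, 78.5 and 133 CPM in LacZ libraries (-0.07 ± 0.32). The striatum-rich replicate 7 had the highest summed level of this list, 1364 CPM, against 612 to 1205 CPM in LacZ libraries. The median was -0.55 without both libraries, -0.08 without knockdown replicate 6, and 0.12 in unstressed mice. No member had an unadjusted p below 0.05 in either fit.

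Cholesterol synthesis genes, which neurons and glia use for membranes, had 1 of 24 members above 0 in both fits, at medians of -0.16 and -0.20. None had an unadjusted p below 0.05. Without LacZ replicate 4 the median was -0.08, and in unstressed mice it was -0.21. Nuclear subunits of oxidative phosphorylation had 4 of 57 above 0 with all libraries and 9 without the bone-rich one (-0.08 in both, and -0.02 without LacZ replicate 4). Genes of the mitochondrial genome had 0 of 15 and 1 of 15 above 0 (-0.18 and -0.15, with -0.05 and -0.40 without LacZ or knockdown replicate 6). The share of counts from the mitochondrial genome was 3.09% to 7.67% in knockdown-labelled libraries and 3.08% to 9.98% in LacZ libraries.

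Immune gene lists lay above 0, with very wide spreads. Of 22 T cell and cytotoxic lymphocyte genes, 21 lay above 0 with all libraries and 22 without the bone-rich one, at medians of 0.29 and 0.42. None had an unadjusted p below 0.05. Gzmb, the granzyme that kills target cells, had a lowest, median and highest level of 17.6, 62.5 and 133.5 CPM in knockdown-labelled libraries and 0.41, 45.4 and 104 CPM in LacZ libraries. Cd8a, the coreceptor of cytotoxic T cells, had 4.96, 13.5 and 17.8 CPM in knockdown-labelled libraries and 0.045, 11.2 and 27.3 CPM in LacZ libraries. The groups overlapped almost fully but for LacZ replicate 4, which had almost no lymphocyte RNA. Summed over the list it had 21.8 CPM, against 123 to 531 CPM in knockdown-labelled libraries and 175 to 455 CPM in the other LacZ libraries. The bone-rich library had the lowest sum of the knockdown-labelled group. With LacZ replicate 4 alone left out of all 14 libraries, the median of the list was 0.07. Without LacZ replicate 4, the bone-rich library and knockdown replicate 7 it was 0.18.

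Interferon-stimulated genes had 27 of 39 members above 0 with all libraries and 34 without the bone-rich one (medians 0.10 and 0.24), and a median of -0.06 without LacZ replicate 4, whose summed level of 619 CPM was the lowest of the 14. The bone-rich library had the lowest sum of its group, 1974 CPM. Without LacZ replicate 4, the bone-rich library and knockdown replicate 7 the median was 0.07. Isg15, an antiviral ubiquitin-like protein, had 5.67, 8.26 and 26.4 CPM in knockdown-labelled libraries and 1.86, 5.28 and 46.8 CPM in LacZ libraries, at -0.51 ± 0.69 and -0.39 ± 0.73. Cell cycle genes had 23 of 24 above 0 in both fits (0.27 and 0.35), cytokine and acute phase genes 13 and 14 of 16 (0.36 and 0.52), and reactive astrocyte genes 14 of 17 in both (0.18 and 0.27). LacZ replicate 4 also had the lowest summed level of cell cycle genes in its group, 51.5 CPM, with the next at 262 CPM, and without it their median was 0.09. Their median was 0.19 with the bone-rich library and knockdown replicate 7 left out as well. Leaving out knockdown replicate 4 brought the cytokine median to 0.14, and leaving out knockdown replicate 3 brought that of reactive astrocyte genes to 0.03. Microglial markers had 12 of 17 above 0 in both fits at medians of 0.06 and 0.04, and at -0.21 without knockdown replicate 3 and 0.39 without LacZ replicate 2. Aif1, a microglial calcium-binding protein, was at 0.29 ± 0.41 and 0.37 ± 0.43, and Cd68, a lysosomal protein of phagocytes, at 0.20 ± 0.62 and 0.17 ± 0.66. None of the members of these 5 lists had an unadjusted p below 0.05.

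**Figure D5:**
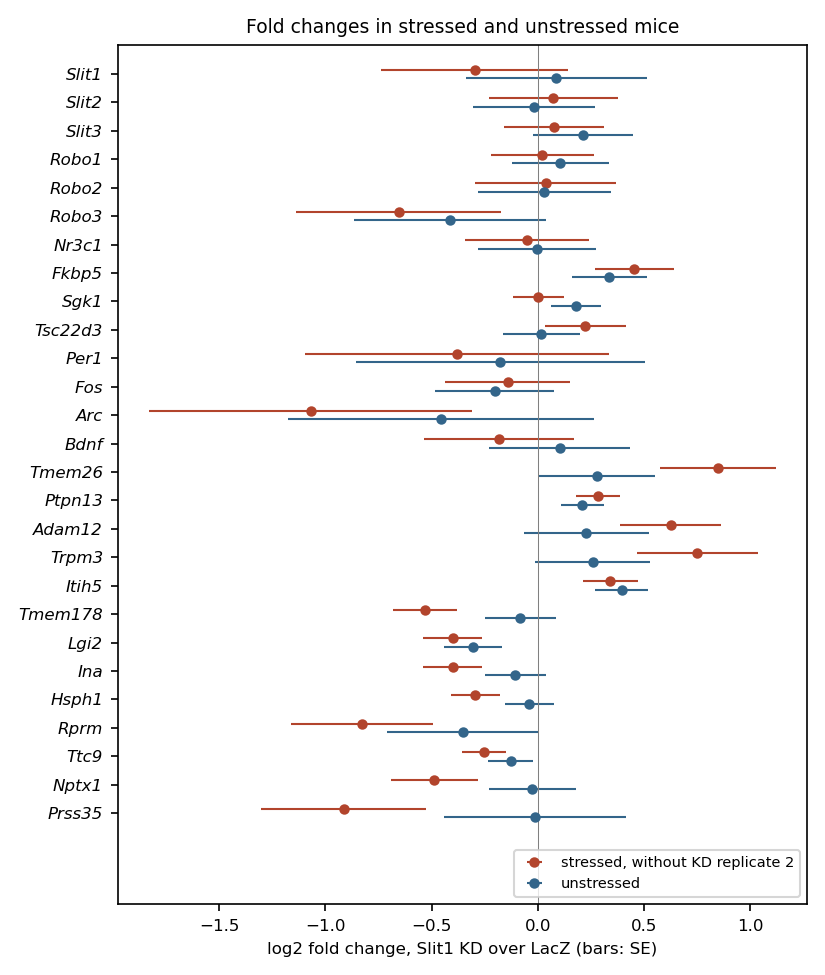
Log2 fold change of knockdown label over LacZ (horizontal axis, bars are SE) for 27 named genes in stressed mice without the bone-rich library (red) and in unstressed mice (blue, below each red point). Fkbp5 stands at 0.45 and 0.34, Slit1 at -0.30 and 0.09, and Tmem178 at -0.53 and -0.08.

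Whether the difference by virus depended on stress was asked with the interaction of virus and stress over all 28 libraries. At a Benjamini-Hochberg adjusted p of 0.05 edgeR called 0 genes, and 68 (0.355%) had an unadjusted p below 0.05. Of the 158 genes at that level in the stressed comparison, 28 were also at that level in the interaction. The interaction includes the stressed difference and its libraries, so that overlap is in part built in and shows no dependence on stress. For Mmp13 the interaction had an edgeR unadjusted p of 0.008 with all libraries and 0.646 without the bone-rich one. Fkbp5 gave an interaction of 0.11 with all libraries and 0.12 without the bone-rich library (edgeR unadjusted p = 0.651), so its values of 0.45 in stressed and 0.34 in unstressed mice were not shown to differ. For Lgi2 and Itih5 the values in unstressed mice were -0.31 and 0.39, and the interactions were -0.02 and -0.09 with all libraries and -0.10 and -0.05 without the bone-rich one. Tmem178 was at -0.53 in stressed mice without the bone-rich library and at -0.08 in unstressed mice, with an interaction of -0.45 (edgeR unadjusted p = 0.0425, Benjamini-Hochberg adjusted p = 1.00). Tmem178 was named for a small p in the stressed difference, which the interaction includes, so this p is no separate support. With all libraries its interaction was -0.29 (edgeR unadjusted p = 0.230, Benjamini-Hochberg adjusted p = 1.00), so that the unadjusted p lay below 0.05 just without the bone-rich library. Slit1 gave -0.21 with all libraries and -0.39 without the bone-rich one (edgeR unadjusted p = 0.535).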

How the data were processed

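Each deposited file holds raw counts, fragments by gene for 1 library, made by the authors with featureCounts 1.6.2 over whole gene spans of the Ensembl 90 annotation, GRCm38, from alignments with duplicates removed and with no strand option, per the file headers. A gene and its antisense partner therefore cannot be told apart, and fragments in overlapping genes were counted for neither. The tools listed are DESeq2, HISAT2, Subread and featureCounts and the builds GRCm38 and mm10, per the submitters' processing notes. Per the labels' protocols, tissue was taken with a blunt needle, ribosomal RNA was depleted and hexamers primed the cDNA.

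From the 52636 genes, 52489 were matched to symbols of GENCODE M21 for GRCm38. Genes were kept by filterByExpr, which left 19171 (19340 without the bone-rich library). TMM-scaled counts were tested with edgeR 4.0.16 in R 4.3.3 (glmQLFit and glmQLFTest, robust), with 1 coefficient per group over all 28 libraries so that the groups share 1 estimate of spread. The threshold for a call was an adjusted p of 0.05 by Benjamini-Hochberg. Slit1 was also tested by exact two-sided permutation of mean log2 CPM (prior count 2). CPM values use TMM-scaled library sizes, and the SE is the log2 fold change over the root of F. The fit was tested on data simulated with less spread between libraries than seen here and with no library standing apart. That test checks the code and not the power of the fit in these data. Between libraries the smallest chi-square per gene was 8.5, so all were kept as separate mice. Total counts were 30.6 to 44.3 M over the 28 libraries. Each p from edgeR sets a difference between groups against the spread between single mice, as estimated over all libraries of the fit.

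The members and the 43 lists were chosen with earlier results of these data known. Named genes were the Slit and Robo genes, 11 genes of stress, activity and glia, the 8 genes of smallest p in each direction in each of the fits with and without the bone-rich library (predicted genes left out), up to 4 members per list with an unadjusted p below 0.05, and 6 bone genes. Marker genes of cell types were fixed with them. Lists are described by counts and medians, and no set test was run. Alternatives were DESeq2 1.42.0, voomWithQualityWeights in limma 3.58.1, RLE and upper-quartile factors, other filters, the stressed libraries alone, subsets by title number, title number or GC slope or surrogate variables (sva 3.50.0) as covariates, and libraries left out singly or together. Sequences were not used, since no result turned on one.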

Additional observations from a re-analysis of the deposited data

Results flagged for a closer look

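A value was marked here where the highest or lowest library of a group of 7 lay farther from its neighbour than Dixon's 95% critical value allows. Of 194 groups tested, 20 were marked, and chance alone marks about 1 in 20 groups. That rate is no yardstick here, since many of these genes were named by a rule that read their p in the same libraries. All 20 lie in 3 libraries.

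In knockdown replicate 2, the bone-rich library, 11 values were marked as the highest of their group. The levels were 218.1 CPM for Ibsp, 633.5 CPM for Col1a1, 998.6 CPM for Col1a2, 252 CPM for Ctsk, 223.5 CPM for Mmp13, 95.51 CPM for Mmp9 and 30.33 CPM for Atp6v0d2. Col13a1 was at 19.63 CPM and Scn11a at 1.723 CPM. The mean log2 CPM of the bone list was 6.24, with the next library at 1.06, and that of the extracellular matrix list was 5.198, with the next at 4.12.

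In knockdown replicate 7, the striatum-rich library, 7 values were marked as the highest of their group. They were 13.28 CPM for Isl1, 5.981 CPM for Drd3, 34.67 CPM for Slc5a7, 192.5 CPM for Rarb, 10.14 CPM for Clic6 and 3.371 CPM for Otx2. The mean log2 CPM of the striatal list was 4.529, with the next library at 2.55.

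In LacZ replicate 4 the mean log2 CPM was marked as the lowest of its group for 2 lists. It was -1.302 for T cell and cytotoxic lymphocyte genes, with the next library at 2.04, and -1.656 for cytokines, chemokines and acute phase genes, with the next at 0.99.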

How the results depend on the processing

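At a Benjamini-Hochberg adjusted p below 0.05, 0 genes were called under each alternative run with that threshold, for the stressed comparison and the interaction, and 0 at an adjusted p below 0.1. An unadjusted p below 0.05 with a fold change of at least 1.3 gave 149 genes. The 158 genes at an unadjusted p below 0.05 became 880 with voomWithQualityWeights (991 without the bone-rich library), 806 with no filter, 91 at a CPM of at least 1 in 7 libraries, 424 with the GC slope as a covariate (621 without the bone-rich library) and 443 with 2 surrogate variables. They became 93 within title numbers up to 20, 680 within those above 20, and 96 without the bone-rich and striatum-rich libraries. With each library left out in turn they ran from 136 to 192. Groups that do not overlap numbered 2 genes instead of 1 without the bone-rich library. The median SE fell to 0.16 with the GC slope as a covariate.

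Slit1 turned to 0.15 with voomWithQualityWeights, and ran from -0.30 to 0.058 with single libraries left out, above 0 without LacZ replicate 1 or 2 or knockdown replicate 6. Of 54 named genes, 29 kept their sign in each of the 32 settings that gave a value, and 7 of these 29 had none in 1 or more settings. Besides Slit1, leaving out single libraries turned the sign of some of the others, over these ranges: Cd68 -0.091 to 0.75, Clic6 -0.28 to 2.49, Col1a1 -0.21 to 6.22, Ctsk -0.34 to 3.70, Isg15 -0.88 to 0.05, Isl1 -0.007 to 4.601, Mmp13 -0.065 to 5.85, Nr3c1 -0.22 to 0.023, Per1 -0.45 to 0.14, Robo1 -0.068 to 0.13, Robo2 -0.18 to 0.17, Sgk1 -0.03 to 0.072, Slc5a7 -0.14 to 1.76 and Slit2 -0.037 to 0.20. The rest of the others turned only under different settings.

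Reversed with DESeq2 were Col1a1 (-0.19), Ctsk (-0.32) and Mmp13 (-0.12), and without the bone-rich library too they were at -0.20, -0.34 and -0.055. DESeq2 ran with its defaults, which replace outlying counts in groups of this size. Its fit with all libraries therefore need not carry the counts of the bone-rich library in full. A fit without this replacement was not run. With voomWithQualityWeights reversed Arc (0.44), Clic6 (-0.006), Fos (0.068), Isg15 (1.20), Per1 (0.59), Robo1 (-0.13), Robo2 (-0.17) and Slit2 (-0.11). With it and without the bone-rich library reversed Arc (0.20), Fos (0.12), Isg15 (1.22), Otx2 (-0.20), Per1 (0.34), Robo1 (-0.15), Robo2 (-0.13) and Slit2 (-0.10). The GC slope reversed Isg15 (0.038) and Per1 (0.071), and surrogate variables Per1 (0.11). The GC slope without the bone-rich library reversed Ctsk (-0.23), Isg15 (0.22), Mmp13 (-0.15), Per1 (0.007), Robo1 (-0.001), Robo2 (-0.049), Sgk1 (-0.013) and Slit2 (-0.013).

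The striatum-rich library has a title number above 20, and the bone-rich and lymphocyte-poor libraries have numbers up to 20. Title numbers above 20 reversed Arc (0.36), Fos (0.20), Isg15 (1.05), Per1 (0.22), Robo1 (-0.22), Robo4 (0.15) and Slit3 (-0.22). Those up to 20 reversed Clic6 (-0.46), Hs3st4 (0.11), Nts (-0.77), Prss35 (0.30), Robo2 (-0.009), Sgk1 (-0.02), Slc5a7 (-0.053), Slit2 (-0.029) and Tsc22d3 (-0.11). Without the bone-rich and lymphocyte-poor libraries Col1a1 (-0.14), Ctsk (-0.20), Mmp13 (-0.28), Mmp9 (-0.023) and Sgk1 (-0.006) reversed. Without the bone-rich and striatum-rich ones Clic6 (-0.33), Col1a1 (-0.038), Ctsk (-0.25), Isl1 (-0.33), Otx2 (-0.72), Robo1 (-0.038), Sgk1 (-0.084), Slc5a7 (-0.075) and Slit2 (-0.046) did. Without all 3, Clic6 (-0.36), Ctsk (-0.11), Isl1 (-0.56), Mmp13 (-0.12), Otx2 (-0.86), Robo1 (-0.034), Sgk1 (-0.091), Slc5a7 (-0.13) and Slit2 (-0.028) did. Beyond the parts that libraries left out show, the cause was not tested. Of 1376 list medians compared, 20 moved by more than the spread between replicates, in 8 lists. Within title numbers above 20, the median of immediate early genes was 0.16, against -0.20 in all. That of glucocorticoid-responsive genes was 0.61 there, against 0.20 in all. DESeq2 and voomWithQualityWeights without the bone-rich library, and the fit without all 3 libraries, were chosen after seeing the data. No paired analysis was possible because replicate numbers are only places in accession order.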
